A study of Mus musculus with 5 samples.

Results

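The genes described here were 10 genes of antigen presentation on MHC class II molecules (Cd74, H2-Aa, H2-Ab1, H2-Eb1, H2-DMa, H2-DMb1, H2-DMb2, H2-Oa, H2-Ob and Ciita), out of 19057 genes with a probe on the array. They were chosen by name, and all 18 probes that the platform annotation assigns to them were read. The RNA was that of total bone marrow cells of male BALB/c mice, 7 to 8 weeks old. The irradiated mice had received 4 Gy of gamma-rays to the whole body and were sampled on day 3, 7, 11 or 21 after irradiation (DAI, days after irradiation), and the control mice were sham-irradiated (0 DAI). Each time was measured on 1 Illumina MouseWG-6 array. No spread between animals can therefore be given, no test was possible, and all 4 comparisons shared the single 0 DAI array.

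MHC class II molecules display peptides of engulfed proteins on the cell surface, where CD4+ T cells read them. An alpha and a beta chain pair in the endoplasmic reticulum, the invariant chain Cd74 fills their groove and guides them to endosomes, and proteases trim it to a short piece. The chaperone H2-DM exchanges that piece for an antigen peptide, and H2-O holds H2-DM back. In bone marrow, B cells, dendritic cells and macrophages carry these molecules, and the co-activator Ciita switches their genes on. Ciita does not bind DNA itself. It docks on factors that sit on a conserved set of promoter elements, the X and Y boxes, the X box being read by the RFX complex and CREB and the Y box by NF-Y.

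Of the 10 genes, all but Cd74 and Ciita lie within 224 kb of chromosome 17, the mouse MHC (GRCm38.p6, positions 34092379 to 34316674). The promoter table held windows for 7 of the 10 genes. The bases upstream of the annotated start are shown for 6 of them because Ciita is known to act through elements of this region. H2-DMa, the seventh, has 2 annotated starts and is not shown, since neither window held a match in these bases (1 held a Y box core farther upstream). They were taken from RefSeq (GRCm38.p6, a C57BL/6J genome, while the mice were BALB/c), written 5′ to 3′ on the coding strand and ending at the base before the start. Capitals mark a match on the coding strand to the X box core (AACNNNTGA), the Y box core (GATTGG) or the cyclic AMP response element (TGACGTCA). H2-Eb1 also had a Y box core on the opposite strand, at bases -35 to -30 from the start, which is left in lower case. H2-Eb1 was read at chr17:34305717-34305866 (plus strand), H2-Aa at chr17:34287824-34287973 (minus strand), H2-Ob at chr17:34238755-34238904 (plus strand), H2-Oa at chr17:34092229-34092378 (plus strand), H2-DMb1 at chr17:34153041-34153190 (plus strand) and H2-DMb2 at chr17:34145099-34145248 (plus strand).
H2-Eb1: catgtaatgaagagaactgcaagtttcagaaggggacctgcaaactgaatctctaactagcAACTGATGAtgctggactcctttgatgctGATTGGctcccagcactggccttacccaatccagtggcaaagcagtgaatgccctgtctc
H2-Aa: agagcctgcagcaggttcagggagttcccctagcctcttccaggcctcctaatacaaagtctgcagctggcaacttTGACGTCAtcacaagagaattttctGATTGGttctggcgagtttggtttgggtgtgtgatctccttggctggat
H2-Ob: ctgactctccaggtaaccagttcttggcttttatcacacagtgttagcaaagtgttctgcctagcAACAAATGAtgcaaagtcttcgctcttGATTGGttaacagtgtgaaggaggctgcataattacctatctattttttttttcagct
H2-Oa: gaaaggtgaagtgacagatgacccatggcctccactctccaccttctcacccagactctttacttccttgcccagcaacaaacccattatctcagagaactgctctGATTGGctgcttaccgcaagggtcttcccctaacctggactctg
H2-DMb1: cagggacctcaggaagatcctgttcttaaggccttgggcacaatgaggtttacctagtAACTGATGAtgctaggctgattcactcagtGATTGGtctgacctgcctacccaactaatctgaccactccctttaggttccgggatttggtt
H2-DMb2: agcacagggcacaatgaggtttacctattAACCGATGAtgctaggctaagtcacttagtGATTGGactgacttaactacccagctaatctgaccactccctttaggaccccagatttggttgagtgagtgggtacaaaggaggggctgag

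An X box core followed by a Y box core stood in the windows of H2-Eb1, H2-Ob, H2-DMb1 and H2-DMb2, with 20, 18, 21 and 21 bases between them. H2-Aa had the cyclic AMP response element and a Y box core, and H2-Oa had a Y box core alone. The letters were written down after these windows had been read, so the matches are a description. Over all 32851 windows of 300 bases, searched on both strands, 11.9% held an X box core, 16.1% a Y box core and 1.79% the cyclic AMP response element. The ordered pair, 10 to 40 bases apart on 1 strand, was in 50 windows (0.152%). Of the 44 other gene symbols with the pair, 13 gave a ratio at 7 DAI. Their median log2 ratio was -0.14, and 1 of them, the histone gene H2bc9 (-1.37, picked out after its value was seen), was at least 2-fold lower.

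**Figure D1:**
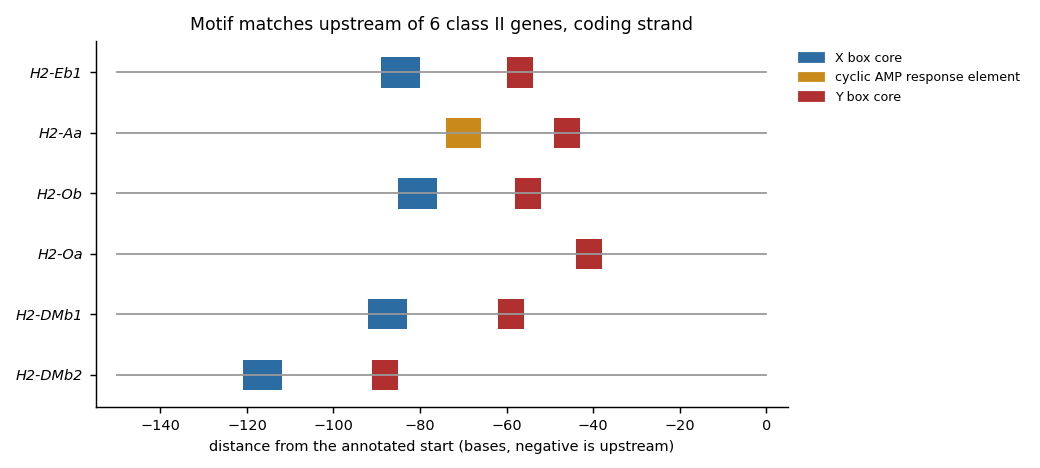
Positions of the motif matches on the coding strand upstream of 6 class II genes. The x axis is the distance in bases from the annotated start, each row is 1 gene and each box spans 1 match. The X and Y box cores of H2-Eb1, H2-Ob, H2-DMb1 and H2-DMb2 are 18 to 21 bases apart.

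The arrays had the same mean signal of 535.7 by the deposited scaling, and between 29.8% and 30.5% of their probes were above a signal of 64, which was taken as the floor of detection. The signals are intensities on a linear scale, and they compare arrays for 1 probe, not 1 gene with another. Of the 10 genes, 8 were above the floor on all 5 arrays and all 10 on at least 1. H2-Ob was at or below it at 3 and 7 DAI and Ciita at 7 DAI. As for the tissue, none of the 13 neutrophil and 8 erythroid markers with a probe stayed below that floor throughout. A ratio whose lower signal was raised to the floor is a bound and is written as such. A gene was called higher or lower at a log2 ratio of 1 (2-fold) or more, a rule of size in place of a test.

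The classical chains and Cd74 had their lowest signal at 7 DAI. Cd74, the invariant chain, read 8045, 5858, 2692, 11663 and 7297 at 0, 3, 7, 11 and 21 DAI. Its signal was thus 2.99-fold lower at 7 DAI than at 0 DAI (log2 ratio -1.58) and was highest at 11 DAI, where the log2 ratio was 0.54. A second bright probe for Cd74 followed the same course, with 5226, 4722, 2187, 8505 and 5078 at 0, 3, 7, 11 and 21 DAI. The dim remaining probe read 286, 194, 80.6, 229 and 77.6 at the same times, so that it alone was at least 2-fold lower at 21 DAI (-1.88, against -0.14 and -0.04 for the bright probes). Cd74 was therefore lower at 7 DAI by all 3 probes and was not settled at 21 DAI.

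H2-Ab1, the beta chain of the I-A molecule, read 2146, 1784, 906, 2304 and 1660 at 0, 3, 7, 11 and 21 DAI. Its log2 ratio at 7 DAI was -1.24, those at 3 and 21 DAI were -0.27 and -0.37, and the value of 0.10 at 11 DAI changed sign with median scaling or quantile normalization (-0.02). The remaining probes for H2-Ab1 gave -1.14 and at most -1.32 at 7 DAI. H2-Aa, which encodes the partner alpha chain, read 234, 137, 89.1, 192 and 134 at the same 5 times through its only probe. Its log2 ratio was -1.39 at 7 DAI, and it stayed below the 0 DAI signal at 3, 11 and 21 DAI as well (-0.78, -0.29 and -0.81). H2-Aa is highly polymorphic between strains, and the match of its probe to the BALB/c allele was not tested. Nor was that of the H2-Ab1 and H2-Eb1 probes.

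H2-Eb1, the beta chain of the I-E molecule, read 2496, 1817, 840, 3843 and 1738 at 0, 3, 7, 11 and 21 DAI. Its signal was 2.97-fold lower at 7 DAI than at 0 DAI and was highest at 11 DAI (log2 ratios -1.57 and 0.62). H2-Ea, the alpha chain that pairs with it, was not among the 10 genes and is listed as a pseudogene in the C57BL/6J reference, while BALB/c mice make the I-E molecule. Its probe read 7250, 5870, 3280, 7328 and 5626 at the same times, a log2 ratio of -1.14 at 7 DAI and of 0.02 at 11 DAI. Both chains of both molecules were thus at least 2-fold lower at 7 DAI. The probes for H2-Eb2, a further beta chain gene, were at or below the floor throughout.

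**Figure D2:**
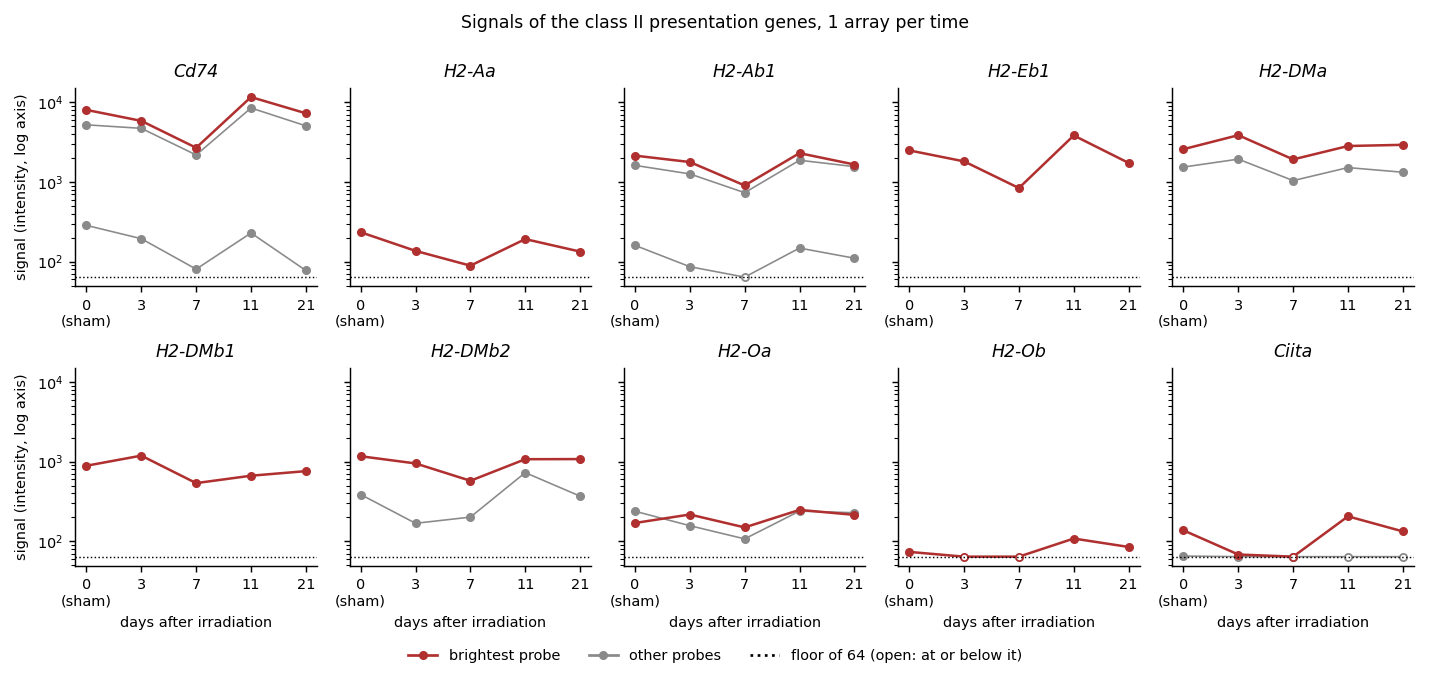
Signal of every probe of the 10 genes, 1 panel per gene, with days after irradiation on the x axis and intensity on a log y axis. Each point is 1 array, red marks the brightest probe of a gene and grey its other probes, and open points lie at or below the floor of 64, drawn as a dotted line. Cd74, H2-Aa, H2-Ab1 and H2-Eb1 dip at 7 DAI, with Cd74 at 2692 there, against 8045 at 0 DAI.

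The H2-DM genes had smaller ratios at 7 DAI than Cd74 and the classical chains. H2-DMa, the alpha chain of H2-DM, read 2584, 3875, 1923, 2833 and 2932 at 0, 3, 7, 11 and 21 DAI. It was highest at 3 DAI (log2 ratio 0.58), a time when Cd74 and the classical chains were below their 0 DAI signals, and its value at 7 DAI was -0.43. The other H2-DMa probe gave 0.33 and -0.56 at these times. H2-DMb1, a beta chain of H2-DM, read 886, 1187, 536, 664 and 758 at the same 5 times. It shared with H2-DMa the highest signal at 3 DAI and the lowest at 7 DAI (0.42 and -0.72), and neither gene reached 2-fold against 0 DAI at any time.

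H2-DMb2, the neighbouring beta chain gene, read 1166, 947, 574, 1070 and 1074 at 0, 3, 7, 11 and 21 DAI. It was just past 2-fold lower at 7 DAI (-1.02, but -0.96 with 50 added to each signal) and within 0.30 of the 0 DAI signal on the log2 scale at the other times. Its dimmer probe read 386, 168, 201, 726 and 368, with log2 ratios of -1.20, -0.94 and 0.91 at 3, 7 and 11 DAI. H2-DMb1 and H2-DMb2 are near-identical copies, so the share of either gene in the signals of these probes is uncertain.

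H2-O, the brake on H2-DM, is known mainly from B cells. H2-Oa, its alpha chain, read 169, 216, 149, 247 and 214 at 0, 3, 7, 11 and 21 DAI by the brighter probe. The log2 ratio at 7 DAI was -0.18 by that probe but -1.15 by the other, which read 238, 157, 107, 239 and 228, and at 3 DAI the 2 probes differed in sign (0.35 and -0.60). No direction is therefore given for H2-Oa at 3 DAI. H2-Ob, the beta chain, read 73.4, 18.9, 36.9, 108 and 84.7, so that it was above the floor at 0, 11 and 21 DAI and not at 3 and 7 DAI. The floor allows a log2 ratio of at most -0.20 at 3 and 7 DAI, and the values at 11 and 21 DAI were 0.56 and 0.21.

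Ciita, the co-activator, read 137, 68.1, 46.5, 205 and 133 at 0, 3, 7, 11 and 21 DAI. By the brightest probes it was the only one of the 10 genes at least 2-fold lower at 3 DAI (-1.01), and at 7 DAI its log2 ratio was at most -1.10. At 11 DAI it was above the 0 DAI signal (0.59), and at 21 DAI the signals were close (-0.04). With signals so near the floor these values are fragile. The call at 3 DAI was lost with a floor of 100 (at most -0.45) or with 50 added to each signal (-0.66). The call at 7 DAI was lost in the same ways (at most -0.45, and -0.95). A floor of 100 lies above both signals, so its values are bounds. The second probe of Ciita, read at 65.1 at 0 DAI, was below the floor at every other time.

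Over the 10 genes, the median log2 ratio at 3, 7, 11 and 21 DAI was -0.28, -1.06, 0.33 and -0.13. Over all genes with a ratio the medians were 0.12, 0.11, 0.12 and 0.17 at these times, close to 0 (-0.01 to 0.03) after median scaling. Relative to all genes, the 10 stood at -0.40, -1.17, 0.22 and -0.30. At 3 DAI, 1 of the 10 was called lower and 0 higher, against 4.19% and 5.56% of all genes. When the irradiated arrays of the later times served as baseline in place of 0 DAI, the count was 0 and the median 0.086. In total marrow, fewer cells of a type and less RNA per cell cannot be told apart.

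At 7 DAI, 6 of the 10 genes were called lower and 0 higher, against 3.4% and 4.09% of 8256 genes. The 6 were Cd74, H2-Aa, H2-Ab1, H2-Eb1, H2-DMb2 and Ciita. By probe, 11 of 18 were called lower and all 18 had a ratio below 0. Those include bounds near 0, of at most -0.03 (second Ciita probe) and -0.20 (H2-Ob). The signal at 7 DAI was the lowest of the 5 for 9 of the 10 genes and 14 of the 18 probes, whereas 19.7% of the 7129 genes above the floor on all arrays were lowest there (8 of the 10 genes were among these). When the other irradiated arrays were averaged as baseline in place of 0 DAI, 3 of the 10 were called lower at 7 DAI and the median was -0.81. Cd74, H2-Ab1 and H2-Eb1 were those 3, and none of the 10 reached 3-fold in the comparison with 0 DAI by its brightest probe (the dim Cd74 probe was 3.54-fold lower). Against 3 DAI, 4 of the 9 with a ratio were lower at 7 DAI and 0 higher (6.07% and 7.13% of all genes). These were Cd74 (-1.12), H2-Eb1 (-1.11), H2-DMb1 (-1.15) and H2-DMa (-1.01, but -0.90 by its other probe).

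At 11 DAI, 0 of the 10 genes were called in either direction against 0 DAI, where 6% of all genes were higher and 5.21% lower. Against 7 DAI, however, 5 of the 10 were higher at 11 DAI and 0 lower, with 5.75% and 9.21% of all genes. Cd74 was 4.33-fold and H2-Eb1 4.57-fold higher at 11 DAI than at 7 DAI, and H2-Aa, H2-Ab1 and Ciita made up the 5. For 6 of the 10 genes the 11 DAI array gave the top signal, as it did for 27.7% of the 7129 genes. Without the 0 DAI array, against the 3 remaining irradiated ones (7 DAI among them), 3 of the 10 (Cd74, H2-Eb1 and Ciita) were higher at 11 DAI. At 21 DAI, 0 of the 10 were called, where 2.56% of all genes were higher and 3.69% lower. Without the 0 DAI array the median at 21 DAI was 0.10. At 21 DAI against 11 DAI, H2-Eb1 alone was called by the brightest probes, with a log2 ratio of -1.15. Of all genes, 5.83% were lower and 6.14% higher there. The dim Cd74 probe gave -1.56 in this comparison, against -0.68 by the brightest one.

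**Figure D3:**
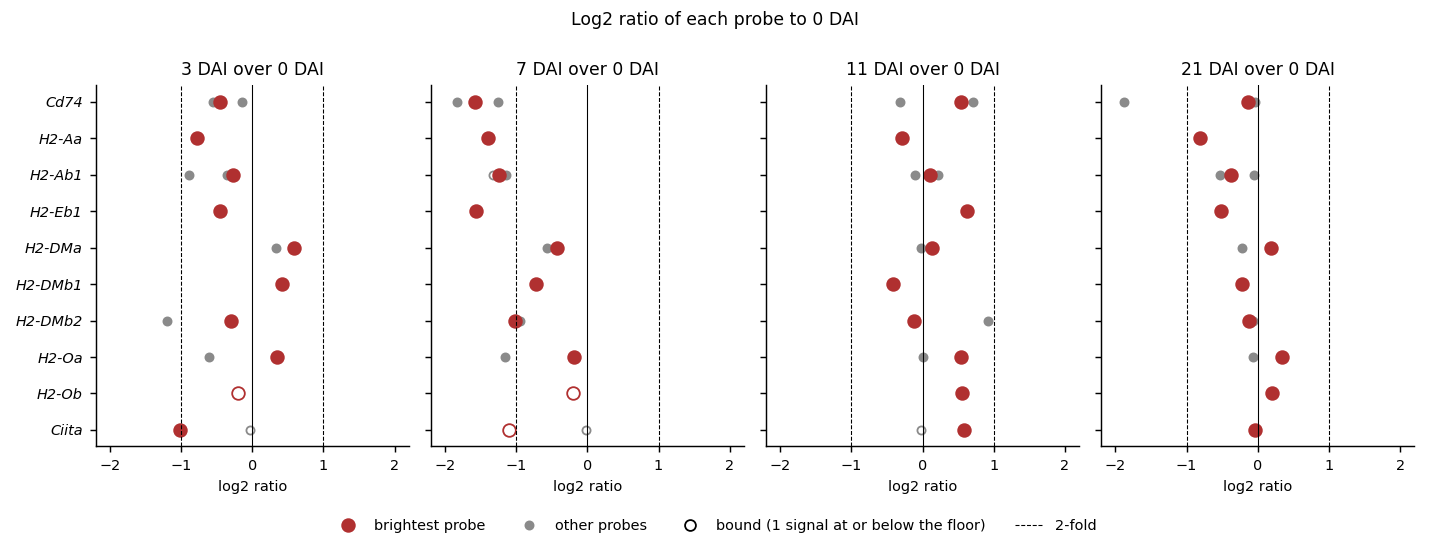
Log2 ratio of every probe to 0 DAI, 1 panel per time and 1 row per gene. Large red points are the brightest probe of a gene, small grey points the others, open points are bounds, and dashed lines mark 2-fold. At 7 DAI all points lie left of 0, whereas at 11 DAI none reaches 2-fold.

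The 4 genes Cd74, H2-Aa, H2-Ab1 and H2-Eb1 had mean log2 ratios of -0.49, -1.45, 0.24 and -0.46 at 3, 7, 11 and 21 DAI. The 7129 genes above the floor on all arrays were ranked by the root mean square difference of their 4 log2 ratios from this course. Likeness was thus judged over 5 arrays that share 1 baseline. Among the other members, H2-DMb2 ranked 28 (0.34), H2-DMb1 684 (0.68), H2-DMa 1639 (0.81) and H2-Oa 2256 (0.87). H2-Aa, itself one of the 4, ranked 30 (0.35). These ranks use the brightest probe, and other probes differed. The dimmer H2-Oa probe lay 0.28 from the course, against 0.87 for the brighter one, the dimmer H2-DMb2 probe 0.58 and the other H2-DMa probe 0.63. For Cd74, itself one of the 4, the probes lay 0.23, 0.37 and, for the dim probe, 0.79 from the course. That dim probe was thus farther from it than H2-DMb1 (0.68). Probes of 1 gene could therefore differ by as much as the H2-DM genes did from the course. By both H2-DMa probes and the H2-DMb1 probe these genes were thus farther from the course than H2-DMb2 by its brightest probe, H2-Oa was not settled, and H2-Ob and Ciita, at the floor on 1 or more arrays, were not ranked. The genes outside the 10 among the nearest 10 were Bag3 (0.14), Trip6 (0.16), Smc6 (0.18), H2-Ea (0.22), Dmac2 (0.22), Rpl22l1 (0.27) and 4930522L14Rik (0.28). H2-Ea was the only class II chain among these 7.

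Among listed promoter factors and cofactors of class II genes, most of those with a ratio at 7 DAI were within 2-fold. Of the 12 class II promoter factors and cofactors listed, 8 had a ratio at 7 DAI, with a median of 0.24. Of these, 1 was called lower and 1 higher, against 3.4% and 4.09% of all genes. Rfxap, a subunit of the RFX complex, read 996, 905, 857, 1032 and 895 at 0, 3, 7, 11 and 21 DAI. Nfyc, a subunit of NF-Y, was as steady, with log2 ratios between 0.01 and 0.11. Creb1, a factor of the X box region, was the one called lower at 7 DAI (at most -1.64), and Ep300, a histone acetyltransferase, the one called higher (1.28). The RFX subunits Rfx5 and Rfxank were at or below the floor on all arrays and give no value.

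Among 11 regulators of Ciita with a probe, Irf4 and Spib were both called lower at 3 DAI. Irf4, a factor of B cells and dendritic cells, read 2229, 392, 721, 1161 and 1295 at 0, 3, 7, 11 and 21 DAI. Spib, an ETS factor of B cells and plasmacytoid dendritic cells, read 525, 169, 272, 1022 and 768. Its log2 ratios were -1.63, -0.95, 0.96 and 0.55, low at 3 and 7 DAI and high at 11 DAI as for Ciita. Irf1, an interferon-induced activator of Ciita, was called higher at 11 DAI (1.07), and Irf2, Irf8 and Spi1 were within 2-fold at every time. Myc, below the floor at 0 DAI, was higher at 3 DAI (at least 1.34) and at 11 DAI (at least 1.54). Of the 8 regulators with a ratio, 2 were lower and 1 higher at 3 DAI, against 4.19% and 5.56% of all genes. At 7 DAI 1 was lower (3.4% of all genes), at 11 DAI 2 were higher (6%), and 0 were called at 21 DAI.

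Processing genes were mixed. Ifi30, a thiol reductase that unfolds antigens in endosomes, read 3159, 3125, 1382, 6773 and 4380 at 0, 3, 7, 11 and 21 DAI. It was called lower at 7 DAI and higher at 11 DAI (-1.19 and 1.10). Ctss, the protease that trims Cd74 in antigen-presenting cells, was chosen here after its value was seen and had a ratio of -0.89 at 7 DAI and of 0.00 to -0.18 at the others. Lgmn, an asparagine endopeptidase, was higher at 3 DAI (1.59), and Ctsh was lower at 11 DAI (-1.03). The bright proteases and inhibitor Ctsb, Ctse and Cst3 were within 2-fold at every time. Of 10 processing genes with a ratio, 1 was lower and 0 higher at 7 DAI, against 3.4% and 4.09% of all genes. Their median was -0.05.

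Of the co-stimulatory genes, Cd40, a receptor of B cells and other presenting cells, read 1056, 307, 317, 2971 and 1827 at 0, 3, 7, 11 and 21 DAI. It was lower at 3 and 7 DAI and higher at 11 DAI (-1.78, -1.73 and 1.49). Cd86 stayed within 2-fold, while Cd274, a ligand that inhibits T cells, was higher at 11 DAI (1.56). Cd80 was called at 3 DAI (at least 1.07). Of the 10 genes of the list, 4 were at or below the floor on all arrays.

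Genes of the interferon-gamma axis, a known inducer of Ciita, were mostly above their 0 DAI signals at 3 DAI. At 3 DAI the median over 13 genes was 0.75, with 6 called higher and 1 lower, against 5.56% and 4.19% of all genes. Of 10 at 7 DAI, 0 were called in either direction, where 4.09% of all genes were higher and 3.4% lower. Genes of this list at or below the floor at 0 DAI had a ratio only where they rose above it. They could not be called lower, and the genes called higher at 3 and 11 DAI include such genes. The sets behind these counts therefore differ between times. Of 12 at 11 DAI, 6 were higher and 0 lower, against 6% and 5.21% of all genes. The values of Gbp2, Igtp, Nlrc5 and Gbp3 there were 4.31, 3.59, 3.56 and 2.98. Nlrc5 is the co-activator of MHC class I genes and a relative of Ciita, and it read 92.9, 218, 140.5, 1095 and 137 at 0, 3, 7, 11 and 21 DAI. Irgm1, a GTPase of the same kind as Igtp and the brightest gene of the list, had -0.27 there. The largest ratio of the class II members at 11 DAI by the brightest probe was 0.62. The part of this shift in the class II values at 11 DAI was not tested.

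**Figure D4:**
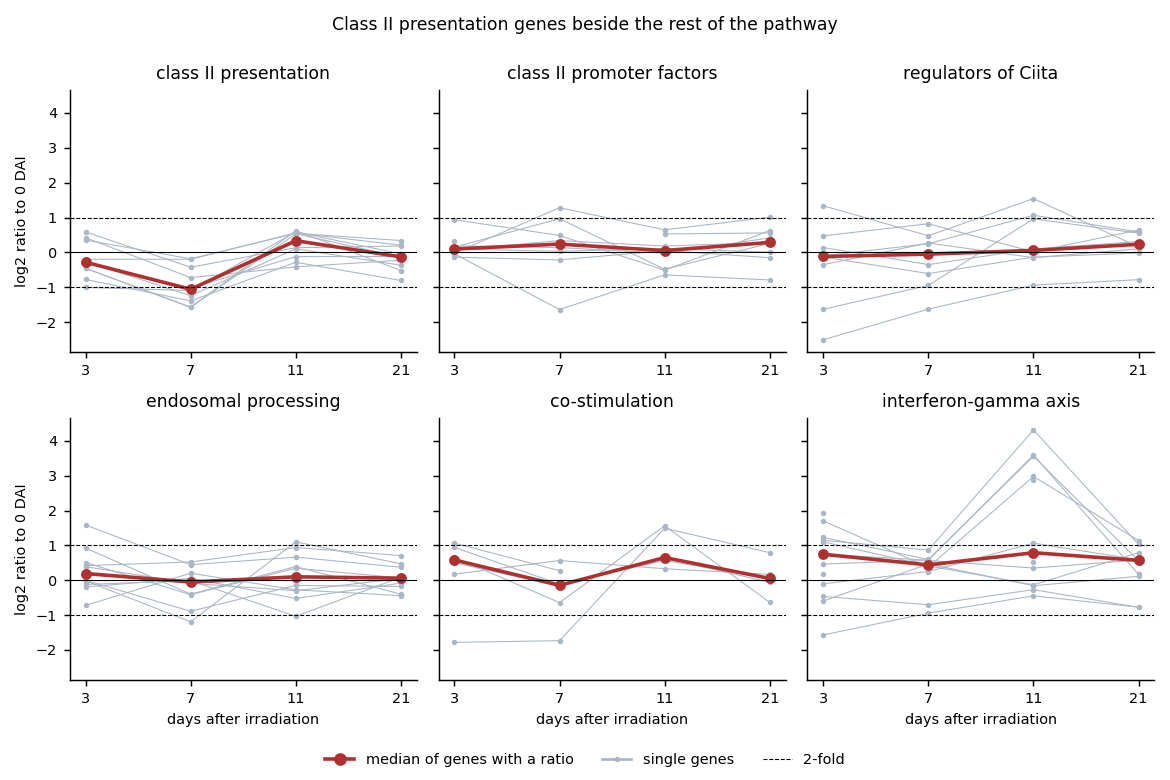
Log2 ratio to 0 DAI (y axis) by day after irradiation (x axis) for the class II genes and 5 lists of the pathway. Thin lines are single genes, the thick red line is the median of genes with a ratio and dashed lines mark 2-fold. The class II median is -1.06 at 7 DAI, whereas the promoter factors and cofactors have 0.24, and genes of the interferon-gamma axis reach 4.31 at 11 DAI.

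Markers of the cells that carry class II molecules moved as well. Of 19 B cell surface markers with a probe, 10 of 17 with a ratio were lower at 3 DAI, 7 of 17 were lower at 7 DAI, 5 of 18 were higher at 11 DAI and 0 of 18 were called at 21 DAI. Their medians were -1.87, -0.85, 0.55 and 0.18. Of all genes, 4.19% were lower at 3 DAI, 3.4% lower at 7 DAI and 6% higher at 11 DAI. Cd79b, a subunit of the B cell receptor, read 8255, 1721, 4558, 12155 and 8485 at 0, 3, 7, 11 and 21 DAI. As a list, B cell markers were therefore lowest at 3 DAI and the class II genes at 7 DAI. Of the B cell markers, 12 of 18 were higher at 11 DAI than at 7 DAI, against 5.75% of all genes. The summed signal of the list ran from 10246 at 3 DAI to 55859 at 11 DAI, with 38929 at 0 DAI, and 1 marker (Cr2) was at or below the floor throughout.

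Macrophage markers had medians above 0 at 3 and 7 DAI, where those of the B cell list were below 0. Of 14 with a probe, 9 of 13 were higher at 3 DAI and 6 of 12 at 7 DAI, with medians of 1.87 and 1.08, and 4 of 12 at 11 DAI and 3 of 11 at 21 DAI. Of all genes, 5.56%, 4.09%, 6% and 2.56% were higher at these times. Markers at or below the floor at 0 DAI had a ratio only where they rose above it, so they could only give values above 0. Their values are lower bounds, and the median of 1.87 is one of them. The medians at 11 and 21 DAI were 0.25 and 0.82, and 1 marker, Csf1r, was lower at 11 DAI (-1.16). The summed signals were 8508, 21645, 18626, 7754 and 14050 at 0, 3, 7, 11 and 21 DAI. C1qc, a complement component made by tissue macrophages, read 67.6, 788, 334, 340 and 158 at 0, 3, 7, 11 and 21 DAI. At 3 DAI the macrophage list was at its highest and the B cell list at its lowest, while the class II median was -0.28.

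Monocyte markers had a median of 0.05 at 3 DAI and -0.74 at 7 and 11 DAI. Of 7 with a ratio at 7 DAI, 2 were lower, Ccr2, the receptor that guides monocytes out of marrow (-1.03), and Klf4 (-2.97). Of 16 dendritic cell markers with a probe, 8 were at or below the floor on all arrays, among them the defining genes Flt3, Itgax, Xcr1 and Clec9a. Of 6 with a ratio at 7 DAI, 2 were lower, Ccr7 and Ly6d, where 3.4% of all genes were lower. Ccr7 had the largest ratio of the list, at most -2.60 at 3 and 7 DAI, and -2.14 and -2.33 at 11 and 21 DAI. Bst2 was higher at 3 and 11 DAI (1.11 and 2.44). Siglech, a plasmacytoid marker, read 967, 538, 866, 547 and 657 at 0, 3, 7, 11 and 21 DAI. Ly6d, also carried by B lineage cells, read 783, 762, 286, 3461 and 1012, and was lower at 7 DAI and higher at 11 DAI (-1.45 and 2.14). The part of any of these cells in the class II values was not tested.

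**Figure D5:**
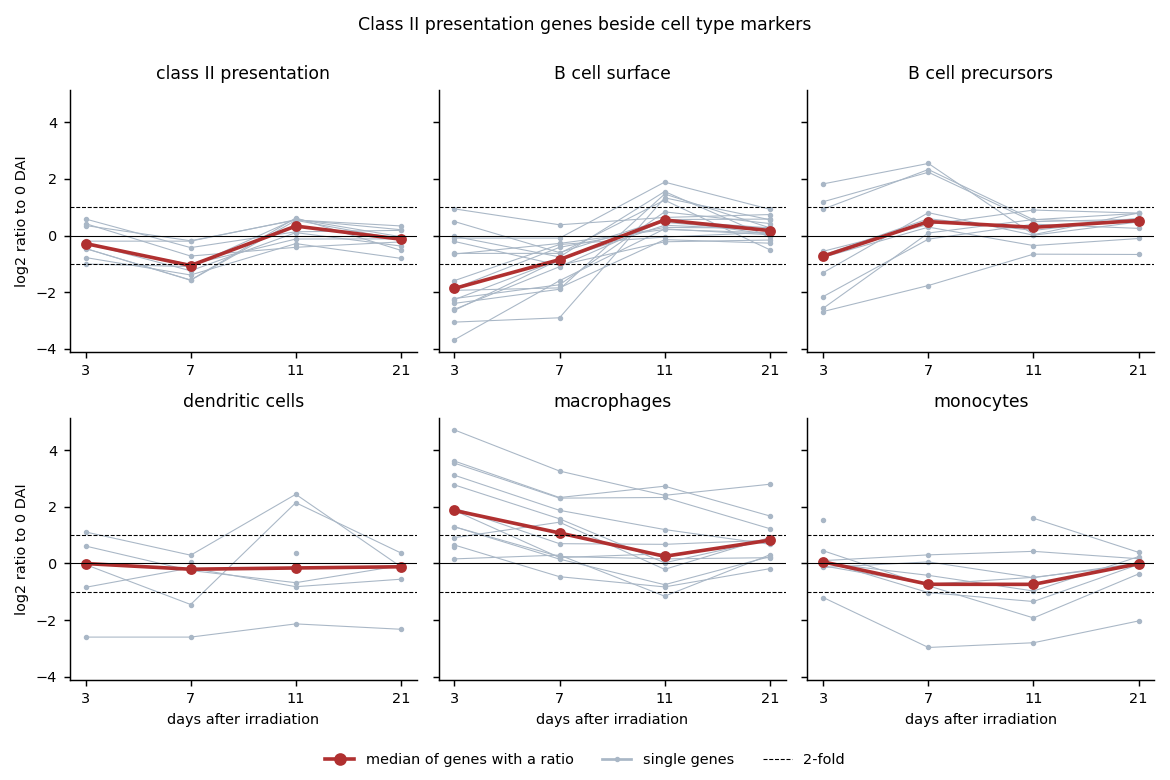
Log2 ratio to 0 DAI (y axis) by day after irradiation (x axis) for the class II genes and 5 lists of cell type markers. Thin lines are single genes, the thick red line is the median of genes with a ratio and dashed lines mark 2-fold. The B cell surface median is lowest at 3 DAI (-1.87), the class II median at 7 DAI (-1.06), and the macrophage median is above 0 at all 4 times. Macrophage markers at or below the floor at 0 DAI could only give values above 0.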

How the data were processed

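Total RNA of bone marrow was hybridised to MouseWG-6 BeadChips, 1 array per time, and whether that RNA came from 1 mouse or a pool was not settled by the sources used here. The authors read the deposited intensity values with GenomeStudio 2010.2, background-subtracted and average-normalized on a linear scale, with between 14742 and 16168 probes per array below 0. They were used without further scaling. A table of 10 non-normalized columns was not used, since their names match no sample.

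Probes with 1 gene symbol (34885 of 45281) were kept, 18 with several and 10378 that are not listed were left out, and a gene was read by its brightest probe. Signals below 64 were raised to 64. A ratio was computed where at least 1 signal was above it, for 8256 to 8471 genes. Python 3.11.15, pandas 2.3.3 and numpy 2.4.6 were used, and the computation was checked on simulated data. No p-value was computed.

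Genes named outside the 10 were taken, per list, from the 4 brightest and the 4 with the largest ratio, and from the 10 nearest to the course of the chains. Not every gene that meets this rule is named. Ctss, Rfxap, H2bc9 and the genes named as at the floor on all arrays fall outside this rule and were picked after their values were seen. The 10 genes and the lists were chosen with earlier results of these data known. Alternatives were quantile normalization, median scaling, other floors, an added 50, the mean over probes, other fold limits and another baseline.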

Additional observations from a re-analysis of the deposited data

How the results depend on the processing

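With 1 array per time the numbers carry no replicate error, and signals near the floor (Ciita, H2-Ob) are bounds more than levels. No paired analysis was possible because each group has 1 array. Of 277 values of single genes under the alternatives, 244 kept their sign and their side of 2-fold, 12 fell short of 2-fold and 4 came past it. The remaining 17 changed sign while staying within 2-fold, 12 of them with the other irradiated arrays as baseline. Of the called directions, 0 reversed.

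At 7 DAI, 6 genes were called lower, which became 3 with the other irradiated arrays as baseline, 0 at 3-fold, 4 with 50 added or with the mean over probes, 5 with a floor of 100 and 7 at 1.5-fold, and stayed 6 with a floor of 32, median scaling or quantile normalization. The median of -1.06 became -0.96 with 50 added, -0.85 with the mean over probes and -0.81 with the other baseline. At 3 DAI, 1 gene was called, which became 0 with a floor of 100, with 50 added, with the mean over probes, at 3-fold or with the other baseline, and 2 with a floor of 32 or at 1.5-fold. The other baseline turned the median to 0.086 at 3 DAI and to 0.10 at 21 DAI, against -0.28 and -0.13 with the 0 DAI array. For 3, 11 and 21 DAI that baseline holds the 7 DAI array, the lowest for 9 of the 10 genes. For 7 DAI it holds the 11 DAI array, the highest for 6 of the 10. It is therefore not an independent check of the 0 DAI array. The count at 11 DAI, 0, became 2 at 1.5-fold and 3 with the other baseline, and that at 21 DAI, 0, became 1 at 1.5-fold. The cause of these changes was not tested.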

Other observations

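Genes that neighbour the class II genes in the MHC but serve other functions had log2 ratios between -0.25 and 0.60 at 7 DAI, where they had a ratio. Of 8 with a ratio, 0 were called at 7 DAI, with a median of -0.06. Of all genes, 3.4% were lower and 4.09% higher there, so for 8 genes a count of 0 is near that share. At 11 DAI, 3 of the 8 were higher, against 6% of all genes. They were Tap1, a subunit of the class I peptide transporter (2.28), and the immunoproteasome subunits Psmb8 (1.54) and Psmb9 (1.44). Brd2, a chromatin reader that lies among them, had log2 ratios between -0.24 and 0.13.

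Genes that control class II molecules at the cell surface differed among themselves. Cd83, which protects class II molecules from degradation, read 176, 138, 8.10, 174 and 132 at 0, 3, 7, 11 and 21 DAI. At 7 DAI its log2 ratio was -1.46 or lower. Marchf1, the ubiquitin ligase that sends class II molecules to degradation, had 0.16 at 7 DAI and -1.10 at 11 DAI. Its relative Marchf8 had -0.18, -1.02 and -1.71 at 7, 11 and 21 DAI.

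Median log2 ratios of the remaining marker lists at 3, 7, 11 and 21 DAI were -0.73, 0.49, 0.29 and 0.53 for B cell precursors, 0.77, 0.29, 0.23 and 0.13 for T cells, and 0.71, -0.53, 0.87 and -0.43 for NK cells. They were -0.16, -0.06, -0.22 and 0.03 for neutrophils, -0.64, 0.00, 0.11 and -1.90 for erythroid cells, 1.73, -0.04, -0.47 and -0.17 for stroma and 0.46, 0.14, 0.34 and 0.63 for plasma cells. The NK cell medians rest on 6, 4, 7 and 4 genes, those of stroma on 9, 6, 6 and 6, and those of plasma cells on 3, 3, 3 and 4. In these lists, genes at or below the floor at 0 DAI had a ratio only where they rose above it. The stroma median of 1.73 is such a lower bound, and medians at different times compare partly different genes.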
